A study of Mus musculus with 6 samples.

Results

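The members described here are 33 genes of glycolysis, lactate handling and the control of pyruvate entry into mitochondria, chosen as the rows of the deposited count table whose symbol is on that list. They are 33 of 23453 gene rows. RNA sequencing was done on 6 splenocyte cultures from wild-type OT1 mice of the C57BL/6 strain, a transgenic line with T cells specific for a peptide of ovalbumin (OVA). All cultures were stimulated with the OVA peptide for 48 h. They then received a medium called FCM (3 libraries titled Vehicle) or one called TCM (3 libraries titled TCM) for 8 h, and the labels expand neither name. Cytotoxic T lymphocytes is the labelled cell type. The labels give no sorting step, no age, and no statement on whether replicates came from separate animals or cultures, so the spread behind each p-value may be technical.

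The count table and the normalized table name the groups oppositely. In 6 of 6 cases a normalized column equals, up to 1 factor, the counts titled as the opposite group with its replicate number, and in 0 cases the counts of its own title. Directions here follow the count table's header, and each would turn round by the other table's header. "Vehicle" and "TCM" below mean the libraries so titled in the count table. The labels do not settle which header is right. Total counts ran from 17166687 to 25789381 per library, and the ribosomal RNA row Rn45s took 11.2% and 11.6% of the replicate 1 libraries and 16.0% to 18.9% of the others. The replicate 1 libraries stood apart within both groups. T cell markers were present in all libraries, with a summed level of 982 to 1173 CPM (read counts scaled by TMM to a common library size) in Vehicle and 1586 to 1901 CPM in TCM. Most of that difference was Thy1 (from 336 ± 51.1 to 923 ± 104 CPM, SD, n = 3): without it the sums were 705 to 805 CPM and 774 to 883 CPM. Of 9 tested T cell genes 2 rose (Thy1 and Cd3d), Cd8a fell and 6 did not pass, with a median log2 change of 0.061. Over all genes tested, 28.8% rose and 30.0% fell. Markers of B cells (1891 to 2268 CPM in Vehicle, 1106 to 1294 CPM in TCM) and neutrophils (8854 to 13477 CPM in Vehicle, 1545 to 2640 CPM in TCM) were present too, so RNA of cells other than the labelled type was present. In such bulk samples, fewer cells of a type and less RNA per cell cannot be told apart.

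Glycolysis splits glucose into pyruvate in the cytosol. Glucose enters through facilitative transporters, is trapped as glucose 6-phosphate by hexokinases, committed by phosphofructokinase, cleaved by aldolase, and oxidised and dephosphorylated in the lower steps to pyruvate. Pyruvate is then either reduced to lactate and exported with a proton, or oxidised in mitochondria by the pyruvate dehydrogenase complex, which the pyruvate dehydrogenase kinases switch off. Activated T cells are known for running glycolysis fast even when oxygen is present, and many of these genes are known targets of the transcription factors HIF-1 and MYC.

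Transcripts of most glycolytic enzymes were higher in TCM than in Vehicle, with the largest rises in Ldhb, Slc16a3, Tpi1 and Eno2. Of 33 members, 32 passed the filter on low counts. Of these, 21 were higher, 3 were lower (Hk3, Adpgk and Pfkfb4) and 8 did not pass an adjusted p of 0.05 in edgeR's quasi-likelihood test. Over all 12423 genes tested, 28.8% were higher and 30.0% were lower by the same rule. At least 2-fold changes were called upward for 13 members and downward for 2, against 13.1% and 10.5% of all genes. The groups did not overlap for 24 of 32 members, against 64.2% of all genes. Without the replicate 1 libraries of both groups, 21 members were higher and 4 lower. With library totals alone as scaling, 19 were higher and 3 lower, and 37.4% of all called genes were higher in place of 49.0%. The median log2 fold change of the tested members was 0.90, beside -0.018 over all genes tested. Across genes it varied with exon length, from a median of 0.42 for the 20% of genes with the shortest exons to -0.31 for the 20% with the longest, so the members were also fitted with that trend removed, which gave a median of 0.86. Summed over the members, the level went from 3382 ± 183 to 6721 ± 419 CPM (SD, n = 3), a ratio of 1.99. In the same libraries, markers of NK cells and dendritic cells had higher sums in TCM through 1 gene each. Without Nkg7 the NK cell sum was 72.0 to 76.7 CPM in Vehicle and 36.8 to 37.3 CPM in TCM. With Nkg7 it was 321 to 463 and 681 to 1224 CPM. Most of the sum left without Nkg7 was Eomes, which went from 51.98 ± 3.77 to 19.97 ± 0.507 CPM (SD, n = 3). Ncr1 fell too, while Klrb1c, Klra7 and Klrk1 did not pass, so the lower sum was mainly a change of Eomes. Without Ccr7 the dendritic cell sum was 30.6 to 33.1 CPM and 14.3 to 16.3 CPM, beside 254 to 300 and 516 to 537 CPM with it. Leaving out the highest gene of a list was chosen after its values were seen, and Eomes was singled out in the same way. The part of other cell types in the members' changes was not tested.

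**Figure D1:**
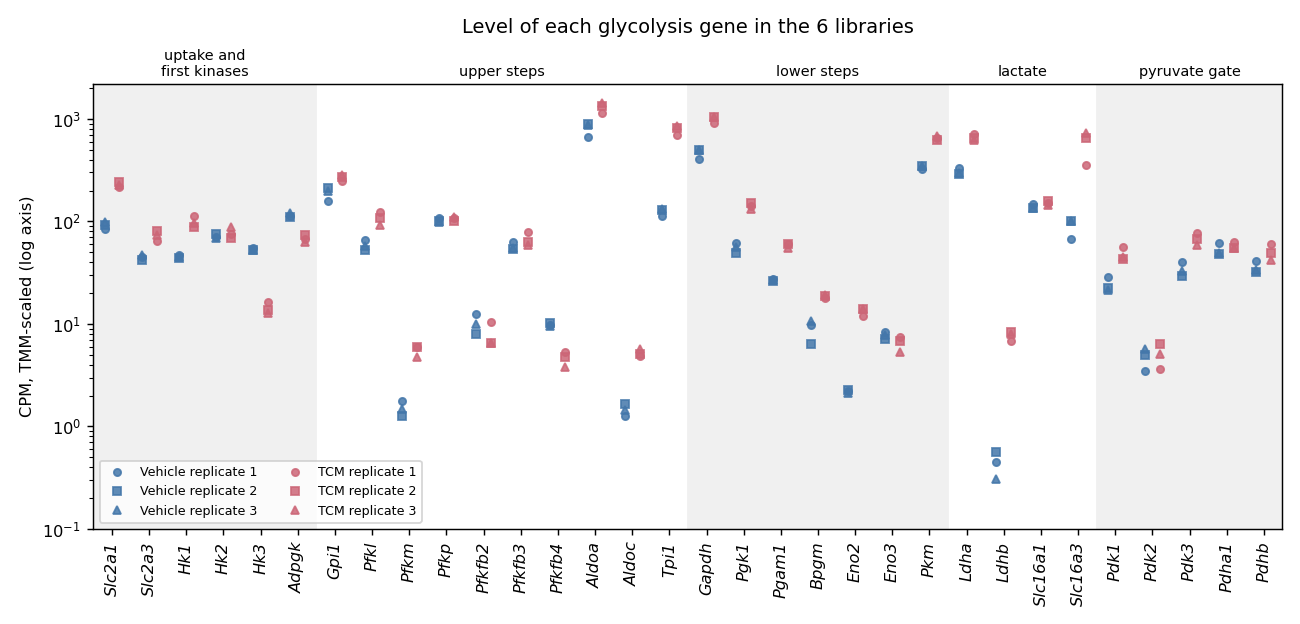
Level of each tested member in CPM on a log axis, 1 point per library, blue for Vehicle and red for TCM, with the marker shape giving the replicate number and the members ordered by their place in the pathway. The red points lie above all blue points for 21 members and below them for Hk3, Adpgk and Pfkfb4.

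Promoter sequences of the members were searched because HIF-1 and MYC are known to bind short motifs around ACGTG. Sequences of GRCm38.p6 from RefSeq, 250 bases before to 50 after each start, were found for 32 of 33 members (Slc2a3 is the exception). The motifs were ACGTG and GCGTG, the core of the hypoxia response element, and CACGTG, the E-box, which contains ACGTG, on both strands. ACGTG was found in 24 of 48 promoters of members and in 19.6% of all 32817 promoters, and GCGTG in 27 of 48 and 32.4%. Counted by gene and among tested genes, ACGTG was in 20 of 31 members against 29.6% of 9237 genes, GCGTG in 20 of 31 against 55.8%, and CACGTG in 6 of 31 against 11.9%. ACGTG or GCGTG was in 16 of 20 members that rose, in 3 of 3 that fell and in 8 of 8 that did not pass, beside 67.4% of all tested genes. Tpi1 and Eno2, with 2 of the largest rises, held neither motif in this window. Base composition was not matched in this comparison, and a match is not a binding site.

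The 250 bases before the start are printed for 4 members that rose by more than 1 on the log2 scale and for Hk3, which fell, with each ACGTG or GCGTG, read on either strand, in capitals. Where a gene has several starts (Ldha has 2), the one with the most matches is shown. The sequences are 5′ to 3′ on the gene's strand. The CACGTG runs in Ldha are E-boxes.
Ldha, chr7:46845554-46845803, + strand: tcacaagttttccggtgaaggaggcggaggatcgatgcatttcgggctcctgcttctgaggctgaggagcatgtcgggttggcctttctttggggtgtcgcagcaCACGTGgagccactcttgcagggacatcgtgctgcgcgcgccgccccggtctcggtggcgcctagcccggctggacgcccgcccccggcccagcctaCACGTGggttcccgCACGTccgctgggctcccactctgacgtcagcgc
Slc16a3, chr11:120948817-120949066, + strand: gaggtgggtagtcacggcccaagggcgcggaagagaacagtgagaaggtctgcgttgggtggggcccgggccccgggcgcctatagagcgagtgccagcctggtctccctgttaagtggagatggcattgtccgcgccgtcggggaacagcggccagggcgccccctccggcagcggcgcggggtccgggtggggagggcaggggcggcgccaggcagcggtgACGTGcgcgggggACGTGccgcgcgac
Slc2a1, chr4:119108495-119108744, + strand: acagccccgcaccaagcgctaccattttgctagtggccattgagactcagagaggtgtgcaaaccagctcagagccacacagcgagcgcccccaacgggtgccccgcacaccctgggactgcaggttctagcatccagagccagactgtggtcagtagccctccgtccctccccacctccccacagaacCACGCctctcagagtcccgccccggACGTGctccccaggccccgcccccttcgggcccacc
Pgk1, chrX:106186850-106187099, + strand: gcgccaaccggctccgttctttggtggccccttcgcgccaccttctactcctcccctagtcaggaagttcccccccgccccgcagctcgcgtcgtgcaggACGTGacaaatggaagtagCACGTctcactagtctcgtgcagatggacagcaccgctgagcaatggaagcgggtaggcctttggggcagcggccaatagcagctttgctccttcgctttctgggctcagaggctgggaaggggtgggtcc
Hk3, chr13:55021386-55021635, - strand: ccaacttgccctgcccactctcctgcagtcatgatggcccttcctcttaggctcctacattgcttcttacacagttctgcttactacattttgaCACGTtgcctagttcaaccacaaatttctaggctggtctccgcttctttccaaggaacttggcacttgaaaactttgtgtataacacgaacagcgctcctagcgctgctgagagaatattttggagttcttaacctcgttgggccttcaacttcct

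At glucose uptake and the first phosphorylation, 3 of 6 members rose and 2 fell, beside 28.8% and 30.0% of all genes. Slc2a1 (chromosome 4, 119108711 to 119137983 in GRCm38/mm10, the build of all positions here) encodes GLUT1, the main glucose transporter of activated T cells. It had 84.4, 91.9 and 98.7 CPM in Vehicle replicates 1 to 3 and 219, 242 and 228 CPM in TCM replicates 1 to 3. All TCM libraries lay above all Vehicle libraries, and the log2 change was 1.32 ± 0.13 (SE; adjusted p = 5.31e-05). Slc2a3, which encodes the high-affinity transporter GLUT3, rose less, by 0.70 ± 0.13 (SE; adjusted p = 0.00146). The share of Slc2a1 in the reads per kilobase of this pair went from 71.3% ± 1.51 to 79.3% ± 1.03 (SD, n = 3).

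The hexokinase genes moved in different directions. Hk1, the broadly expressed isozyme, had 46.9, 43.8 and 45.0 CPM in Vehicle replicates 1 to 3 and 113, 87.6 and 96.3 CPM in TCM replicates 1 to 3. It rose by 1.13 ± 0.13 (SE; adjusted p = 0.000129). Hk2, the inducible isozyme often linked to activated and tumour cells, had 69.7, 74.5 and 69.6 CPM in Vehicle replicates 1 to 3 and 76.0, 69.1 and 87.7 CPM in TCM replicates 1 to 3. Its groups overlapped and its log2 change was 0.12 ± 0.13 (SE; adjusted p = 0.433), or 0.26 (adjusted p = 0.0180) with a trend on exon length removed and the replicate number as a block. Hk3, an isozyme known from myeloid cells (chromosome 13, 55005985 to 55021385), had 54.6, 53.1 and 52.5 CPM in Vehicle replicates 1 to 3 and 16.5, 13.7 and 12.8 CPM in TCM replicates 1 to 3. Every TCM library was far below every Vehicle library, and the log2 change was -1.90 ± 0.13 (SE; adjusted p = 5.52e-06). Markers of neutrophils fell in the same libraries (12 of 13 tested genes, and none rose), as did those of macrophages and monocytes (9 of 11 fell and Cd14 rose). Over all genes tested, 30.0% fell and 28.8% rose. The summed macrophage and monocyte level was 676 to 736 CPM in Vehicle and 181 to 214 CPM in TCM. Much of that difference was Lyz2: without it the sums were 283 to 297 CPM and 150 to 179 CPM. None of the marker genes present in either list was at 0 in all libraries, and the part of these cells in the change of Hk3 was not tested. Per kilobase of transcript, Hk3 went from 41.4% ± 0.439 to 10.7% ± 1.17 of hexokinase reads and Hk1 from 26.4% ± 0.830 to 55.4% ± 2.58, while Hk2 had a share of 32.2% ± 1.25 in Vehicle and 33.9% ± 3.54 in TCM with overlapping groups. With the length of all annotated exons instead of the longest transcript, Hk2 rather than Hk1 had the largest share in TCM (45.7% and 40.6%).

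Adpgk encodes a glucokinase that uses ADP instead of ATP and is linked to the T cell receptor response. It had 113, 110.1 and 121 CPM in Vehicle replicates 1 to 3 and 68.0, 73.3 and 63.1 CPM in TCM replicates 1 to 3. The groups did not overlap, and the log2 change was -0.75 ± 0.12 (SE; adjusted p = 0.000857). Together the 6 genes of uptake and first phosphorylation had a summed level that went from 421 ± 11.6 to 561 ± 4.99 CPM, a ratio of 1.33.

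Among the 10 genes of the upper steps, 6 rose, Pfkfb4 fell and 3 did not pass, while 28.8% of all genes rose and 30.0% fell. Tpi1 encodes triosephosphate isomerase, which interconverts both triose phosphates made by aldolase (chromosome 6, 124810586 to 124814296). It had 113, 130.2 and 132 CPM in Vehicle replicates 1 to 3 and 699, 806 and 846 CPM in TCM replicates 1 to 3. The lowest TCM value was over 5 times the highest Vehicle value, and the log2 change was 2.64 ± 0.16 (SE; adjusted p = 3.01e-06). Its rise was close in size in the pairs of equal replicate number, at 2.63, 2.63 and 2.68 on the log2 scale. Tpi1 shares 34 exonic bases with Spsb2. Gpi1, the isomerase that makes fructose 6-phosphate, and Aldoa, the main aldolase, rose by 0.51 ± 0.16 (SE; adjusted p = 0.0200) and 0.68 ± 0.19 (SE; adjusted p = 0.0140). Both calls were lost when single libraries were left out. For Gpi1 the adjusted p was 0.0550 without Vehicle replicate 1, 0.0561 without Vehicle replicate 3, 0.0669 without TCM replicate 2 and 0.0652 without TCM replicate 3. For Aldoa it was 0.0556 without TCM replicate 2 and 0.0504 without TCM replicate 3. Gpi1 was also not called with library totals alone as scaling, at 0.30 (adjusted p = 0.117).

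Aldoc, a minor aldolase known from brain, had 1.27, 1.65 and 1.43 CPM in Vehicle replicates 1 to 3 and 4.84, 5.04 and 5.68 CPM in TCM replicates 1 to 3. It rose by 1.83 ± 0.17 (SE; adjusted p = 3.83e-05) from a low level, and still held only 0.222% ± 0.0140 of aldolase reads per kilobase in TCM, with Aldoa holding the rest.

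Phosphofructokinase catalyses the committed step, and its subunit genes did not move alike. Pfkl, the liver-type subunit, rose by 0.87 ± 0.15 (SE; adjusted p = 0.00121). Pfkm, the muscle-type subunit, had 1.77, 1.27 and 1.47 CPM in Vehicle replicates 1 to 3 and 5.96, 5.96 and 4.78 CPM in TCM replicates 1 to 3. It rose by 1.89 ± 0.19 (SE; adjusted p = 5.06e-05) from a low level. Pfkp, the platelet-type subunit, had 109, 102 and 97.8 CPM in Vehicle replicates 1 to 3 and 107, 102 and 109 CPM in TCM replicates 1 to 3. Its groups overlapped and its log2 change was 0.045 ± 0.12 (SE; adjusted p = 0.763), but it was called at 0.41 (adjusted p = 0.00961) with the length trend removed. Pfkp shares 748 exonic bases with Pitrm1, and its annotated exons (13401 bp) are far longer than its longest transcript (4145 nt). The ratio of Pfkp to Pfkl per kilobase fell by 0.82 on the log2 scale (exact two-sided permutation test, p = 0.1, the smallest that 3 against 3 libraries allow). Per kilobase of transcript, Pfkl went from 38.4% ± 1.90 to 51.1% ± 3.71 of the reads of these 3 genes. With the length of all annotated exons the share was 52.1% in Vehicle and 62.6% in TCM, so which of Pfkl and Pfkp was the larger in Vehicle depends on the length used.

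The PFKFB enzymes make and break fructose 2,6-bisphosphate, the activator of phosphofructokinase. Pfkfb4 had 9.85, 10.2 and 9.50 CPM in Vehicle replicates 1 to 3 and 5.37, 4.78 and 3.77 CPM in TCM replicates 1 to 3. It fell by 2.12-fold, a log2 change of -1.08 ± 0.15 (SE; adjusted p = 0.000374), with no overlap. Pfkfb3, the isozyme with the strongest kinase activity, had a log2 change of 0.23 ± 0.14 (SE; adjusted p = 0.189), and Pfkfb2 one of -0.37 ± 0.23 (SE; adjusted p = 0.196). With the replicate number as a block both passed, at 0.22 (adjusted p = 0.0436) for Pfkfb3 and -0.39 (adjusted p = 0.00554) for Pfkfb2. Pfkfb3 also passed with the length trend removed, at 0.41 (adjusted p = 0.00702), and Pfkfb2 without TCM replicate 1, at -0.64 (adjusted p = 0.0200), and without both replicate 1 libraries, at -0.48 (adjusted p = 0.00812). Pfkfb3 went from 69.8% ± 0.309 to 81.9% ± 1.10 of PFKFB reads per kilobase and Pfkfb4 from 16.7% ± 1.67 to 7.83% ± 0.643.

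**Figure D2:**
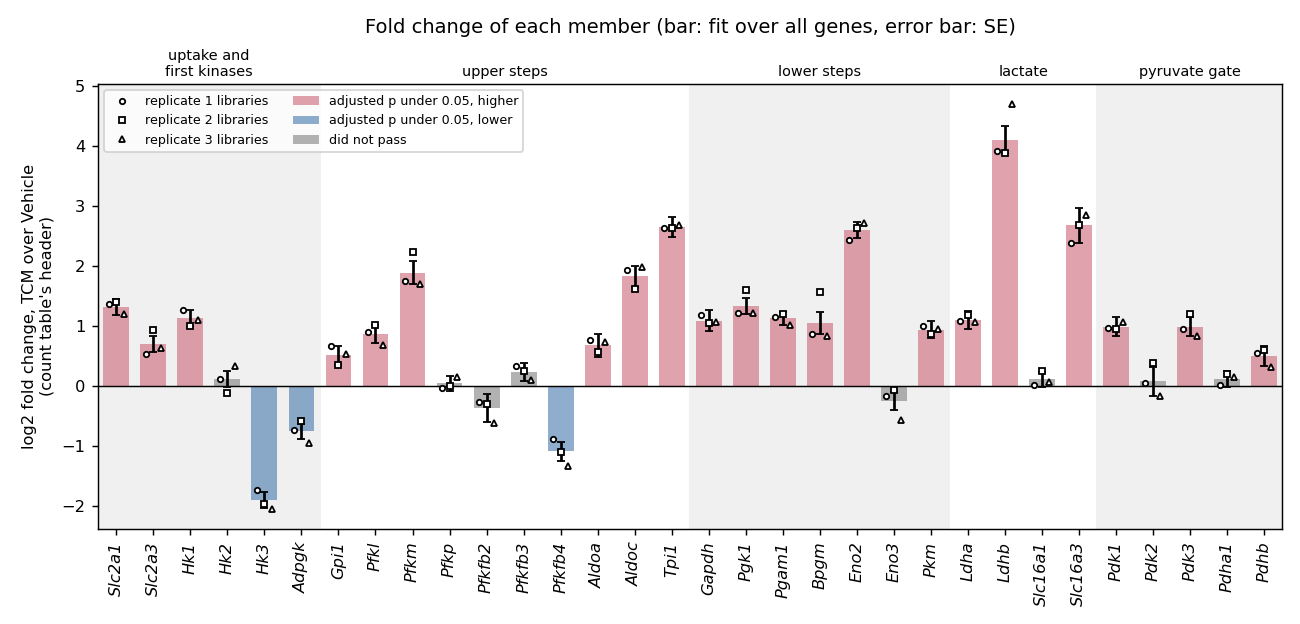
Log2 fold change of TCM over Vehicle for each tested member, with bars for the estimate of edgeR over all 12423 genes, error bars for its standard error, and open markers for the ratio within each pair of equal replicate number. Ldhb, Slc16a3, Tpi1 and Eno2 stand at 2.60 to 4.10, and Hk3, Pfkfb4 and Adpgk lie below 0.

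In the lower steps, 6 of 7 tested genes rose and none fell, beside 28.8% and 30.0% of all genes. Gapdh encodes the dehydrogenase that yields NADH and is widely used as a reference gene in expression work. It had 402, 499 and 494 CPM in Vehicle replicates 1 to 3 and 909, 1031 and 1032 CPM in TCM replicates 1 to 3. The TCM libraries were all higher, by 1.09 ± 0.17 (SE; adjusted p = 0.000586). Pgk1, which makes the first ATP of the pathway, had 60.9, 49.7 and 56.6 CPM in Vehicle replicates 1 to 3 and 142, 150.3 and 131 CPM in TCM replicates 1 to 3. Its log2 change was 1.34 ± 0.13 (SE; adjusted p = 5.30e-05). Pgam1, the phosphoglycerate mutase, had 27.4, 26.3 and 27.0 CPM in Vehicle replicates 1 to 3 and 60.8, 60.8 and 54.9 CPM in TCM replicates 1 to 3. It rose by 1.13 ± 0.11 (SE; adjusted p = 4.15e-05), and its groups did not overlap either. Bpgm, which makes 2,3-bisphosphoglycerate and is best known from red cells, had 9.71, 6.36 and 10.7 CPM in Vehicle replicates 1 to 3 and 17.8, 18.7 and 19.1 CPM in TCM replicates 1 to 3. It rose by 1.06 ± 0.18 (SE; adjusted p = 0.00118). In these libraries, 6 of 8 tested erythroid and platelet markers fell and none rose, beside 30.0% lower and 28.8% higher among all genes. Their summed level was 19.6 to 23.0 CPM in Vehicle and 7.98 to 8.94 CPM in TCM, and Hba-a2 was at 0 throughout. The part of red cells and platelets in the change of Bpgm was not tested.

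Enolase makes phosphoenolpyruvate, and its genes could be read in part only. Eno2, the isozyme known from neurons (chromosome 6, 124760053 to 124769673), had 2.22, 2.24 and 2.13 CPM in Vehicle replicates 1 to 3 and 12.0, 13.9 and 14.0 CPM in TCM replicates 1 to 3. It rose by 2.60 ± 0.14 (SE; adjusted p = 1.38e-06). Eno3, the muscle isozyme, had a log2 change of -0.25 ± 0.16 (SE; adjusted p = 0.196), and passed at -0.60 (adjusted p = 0.0315) with the length trend removed. Eno1 (chromosome 4, 150236721 to 150248879), the ubiquitous enolase that every cell uses, held 3 counts over all libraries, and is listed near 0. The row next to it in the table, Gm5506, an older name of the near-identical Eno1b, held 13 counts. Eno1b shares 70.5% of the 50-base stretches of the longest Eno1 transcript. No fold change is given for Eno1, and the cause of its low count was not tested.

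Pkm encodes pyruvate kinase, which makes pyruvate and ATP in the last step. It had 326, 345 and 349 CPM in Vehicle replicates 1 to 3 and 654, 626 and 673 CPM in TCM replicates 1 to 3. All TCM values were above all Vehicle values, and the log2 change was 0.94 ± 0.14 (SE; adjusted p = 0.000558). The count table holds 1 value per gene, so its M1 and M2 splice forms cannot be told apart.

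Copies limit several of these values. Of 33 members, 14 had no 50-base stretch of their longest transcript in another GENCODE M21 gene, and 9 shared more than 25% of them. The share was 82.5% for Gapdh, 68.0% for Pgk1, 41.5% for Pgam1 and 34.4% for Pkm, mostly with the copies Gm7336, Pgk1-rs7, Pgam1-ps2 and Gm6560. Pdhb shared 30.3%, with Gm6123, Gpi1 25.3%, and Pfkfb2 25.1%, with Gm29427. The levels of all these genes are uncertain for this reason, and the effect on the fold changes was not tested.

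In CPM per kilobase of transcript (RPKM, a level scaled by transcript length), Aldoa was the highest member in both groups, going from 523 ± 83.7 to 839 ± 103 (SD, n = 3). Gapdh came next, from 327 ± 38.6 to 698 ± 49.7. In Vehicle these were followed by Ldha, Pkm and then Tpi1. In TCM Tpi1 stood next after Gapdh: it went from 78.0 ± 6.50 to 488 ± 47.2, past Ldha (from 169 ± 13.3 to 364 ± 22.9) and Pkm (from 139.9 ± 5.01 to 268 ± 9.71). The lowest TCM value of Tpi1 was above the highest TCM value of Ldha. With the length of all annotated exons, Tpi1 (285 RPKM) stood above Gapdh (239.7 RPKM) in TCM, so the order of these genes depends on the length used. Copies make the levels of Gapdh and Pkm uncertain, as given above, so their places in this order are uncertain too. Ldha, Aldoa and Tpi1 shared 16.6%, 13.5% and 7.51% of their 50-base stretches with other genes, a smaller limit of the same kind.

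Of the 4 lactate genes 3 rose, beside 28.8% of all genes, and Ldhb rose more than any other member. Ldha encodes the lactate dehydrogenase subunit that favours reduction of pyruvate (chromosome 7, 46841475 to 46855627). It had 334, 288 and 298 CPM in Vehicle replicates 1 to 3 and 706, 653 and 624 CPM in TCM replicates 1 to 3. It rose by 1.11 ± 0.15 (SE; adjusted p = 0.000297), with no overlap. Ldhb encodes the subunit linked to lactate oxidation (chromosome 6, 142490249 to 142507957). It had 10, 15 and 8 counts in Vehicle replicates 1 to 3 and 128, 126 and 143 counts in TCM replicates 1 to 3. In CPM these were 0.454, 0.561, 0.310 against 6.81, 8.25, 8.04, and the log2 change of 4.10 ± 0.22 (SE; adjusted p = 1.46e-06) was the largest among the tested members. Even so, Ldhb held only 1.60% ± 0.243 of lactate dehydrogenase reads per kilobase in TCM, against 0.201% ± 0.0638 in Vehicle. Its longest transcript shares 27.0% of its 50-base stretches with the copy Gm5514.

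Slc16a3 encodes MCT4, the lactate exporter of strongly glycolytic cells (chromosome 11, 120948480 to 120960868). It had 67.7, 101 and 100.2 CPM in Vehicle replicates 1 to 3 and 353, 652 and 721 CPM in TCM replicates 1 to 3. The replicate 1 library was lower than both others within each group, and the TCM libraries still lay far above all Vehicle libraries. The log2 change was 2.68 ± 0.29 (SE; adjusted p = 8.40e-05), close to those of Tpi1 and Eno2, and the order of these 3 changed when single libraries were left out. Within pairs of equal replicate number the change was 2.38, 2.68 and 2.85. Slc16a1, which encodes the widely expressed transporter MCT1, had 149, 134 and 136 CPM in Vehicle replicates 1 to 3 and 151, 159 and 143 CPM in TCM replicates 1 to 3. Its groups overlapped and its log2 change was 0.12 ± 0.13 (SE; adjusted p = 0.453), with the opposite sign under library totals alone. Slc16a3 went from 39.4% ± 6.69 to 78.3% ± 6.92 of the reads per kilobase of this pair, with Slc16a1 the larger in each Vehicle library and Slc16a3 in each TCM library. The ratio of Slc16a3 to Slc16a1 rose by 2.52 on the log2 scale (exact permutation test, p = 0.1).

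**Figure D3:**
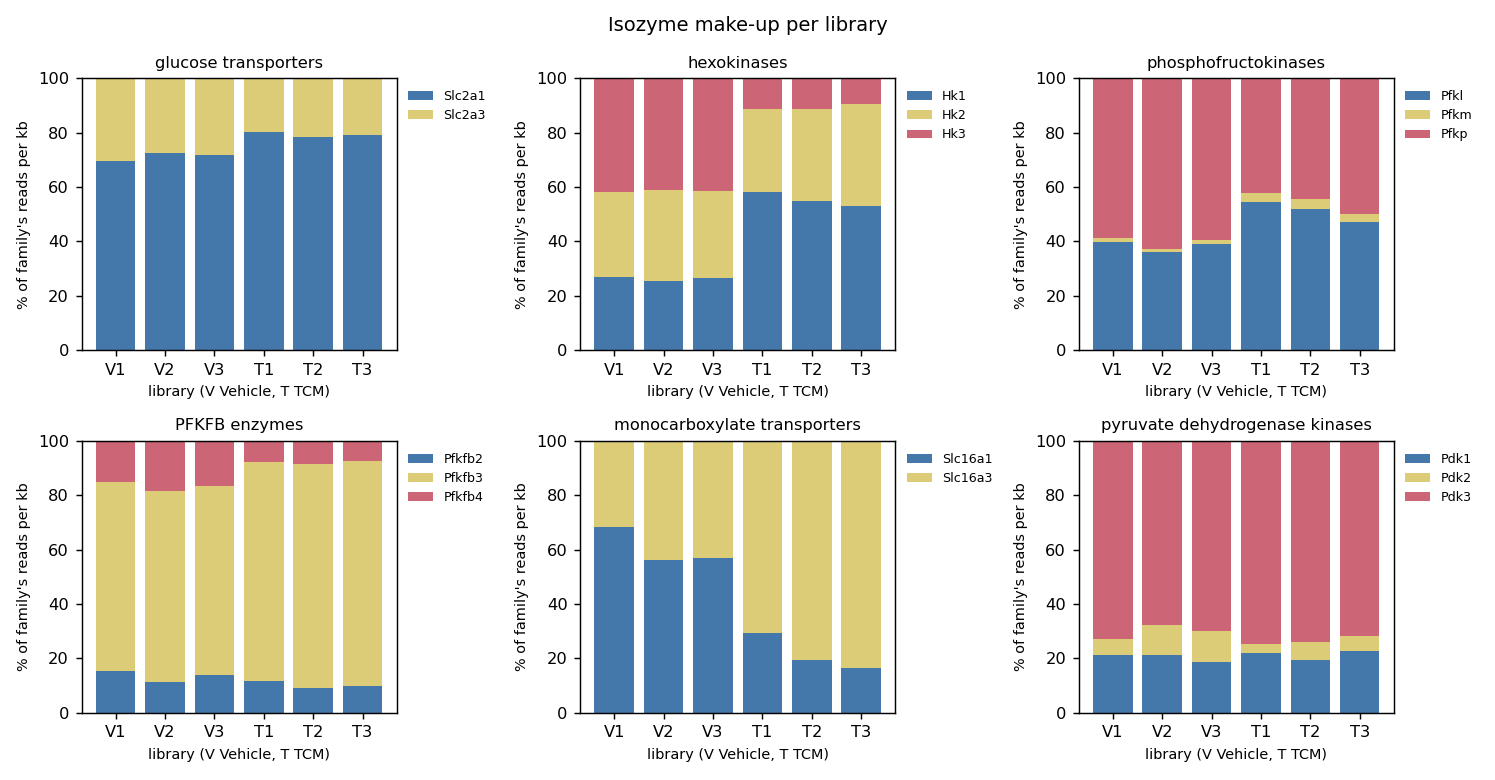
Share of each gene in the reads per kilobase of its family, in percent, for the 6 libraries (V1 to V3 Vehicle, T1 to T3 TCM), with 1 panel per family. Hk3 has 41.4% of hexokinase reads in Vehicle and 10.7% in TCM, and Slc16a3 39.4% and 78.3% of the monocarboxylate transporter pair, while the pyruvate dehydrogenase kinases overlap between groups.

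At the pyruvate gate, 3 of 5 genes rose and none fell, beside 28.8% and 30.0% of all genes. Pdk1 encodes a kinase that inactivates pyruvate dehydrogenase. It had 28.6, 22.4 and 21.6 CPM in Vehicle replicates 1 to 3 and 55.7, 43.3 and 45.1 CPM in TCM replicates 1 to 3. It rose by 0.99 ± 0.15 (SE; adjusted p = 0.000632), and the groups did not overlap. Pdk3, a further kinase of the complex, rose to nearly the same extent, by 0.99 ± 0.16 (SE; adjusted p = 0.000714). The ratio of Pdk3 to Pdk1 differed by -0.00063 between the groups on the log2 scale, within the spread of the libraries (SD 0.11 and 0.13). Pdk2 had a log2 change of 0.078 ± 0.24 (SE; adjusted p = 0.796). Its sign was negative in 5 of 14 other settings, and it did not pass in any of them.

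Pdha1 and Pdhb encode the alpha and beta subunits of the E1 component, which decarboxylates pyruvate. Pdha1 had 62.0, 48.4 and 49.4 CPM in Vehicle replicates 1 to 3 and 62.8, 55.6 and 54.6 CPM in TCM replicates 1 to 3. Its groups overlapped and its log2 change was 0.12 ± 0.14 (SE; adjusted p = 0.486). Pdha1 shares 603 exonic bases with Map3k15. Pdhb rose by 0.50 ± 0.16 (SE; adjusted p = 0.0257). That call was lost in 4 of 6 fits that left out 1 library. Its adjusted p was 0.0874 without Vehicle replicate 2, 0.0894 without Vehicle replicate 3, 0.0520 without TCM replicate 1 and 0.0598 without TCM replicate 2, and 0.342 with library totals alone. As a group, the gate genes went from 152 ± 20.4 to 229 ± 27.9 CPM in summed level, a ratio of 1.5. The ratio was 2.60 for the lactate genes and 2.07 for the lower steps. Much of the lactate rise was Slc16a3, which went from 89.7 to 575 CPM within a mean sum of 536 and 1395 CPM. The gate sum likewise joins genes that rose and genes that did not pass.

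Of 16 listed pairs of isozymes or partners, 14 had counts in every library, and the ratio did not overlap between groups in 11. Among all single genes tested, 64.2% did not overlap, and the share over all pairs of genes was not computed. Each of these 11 ratios had p = 0.1 in the exact two-sided permutation test, or 0.127 after Benjamini-Hochberg adjustment over the 14 pairs. None can pass 0.05 in this design. The largest shifts were in Ldhb over Ldha (3.05 on the log2 scale), Hk3 over Hk1 (-3.03) and Slc16a3 over Slc16a1 (2.52). Those that overlapped were Bpgm over Pgam1, Pdk2 over Pdk1 and Pdk3 over Pdk1.

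Other genes around the pathway were read from lists chosen with earlier results of these data known. Of 25 tested isozymes and partners outside the members, 12 were higher and 3 lower, beside 28.8% and 30.0% of all genes. Their median log2 change was 0.42. Slc2a4, which encodes the insulin-responsive transporter GLUT4, had 1, 6 and 5 counts in Vehicle replicates 1 to 3 and 217, 334 and 427 counts in TCM replicates 1 to 3 (adjusted p = 3.71e-06). Slc2a9, a urate and hexose transporter gene, changed by 1.92 (adjusted p = 1.14e-05). The 3 that fell were Pck2, which encodes mitochondrial phosphoenolpyruvate carboxykinase, at -2.27 (adjusted p = 1.51e-06), Slc2a6 at -0.99 (adjusted p = 0.000191) and the phosphatase gene Pdp2 at -0.71 (adjusted p = 0.00438). The next genes were singled out after their values were seen. Bsg and Emb, whose proteins escort monocarboxylate transporters to the cell surface, rose by 1.35 (adjusted p = 0.000244) and 1.09 (adjusted p = 0.000632). Mpc1 and Mpc2, which form the mitochondrial pyruvate carrier, rose by 1.25 (adjusted p = 0.00117) and 0.66 (adjusted p = 0.0430).

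Hypoxia response genes outside the members rose in 15 of 22 cases, 3 fell (Vegfa, Car12 and Stc2) and 4 did not pass, with a median log2 change of 1.38. Over all genes tested, 28.8% rose and 30.0% fell. Plod2, Bnip3 and Ak4 had the smallest p, with log2 changes of 4.25 (adjusted p = 3.68e-07), 4.07 (adjusted p = 5.76e-07) and 2.82 (adjusted p = 5.32e-07). Among 25 tested regulators of glycolytic genes, 6 were higher and 7 lower, close to the shares over all genes, and the median was -0.058. Hif1a, singled out after its value was seen, had 0.14 (adjusted p = 0.543). Egln3, a prolyl hydroxylase that marks HIF for degradation and is itself a HIF target, rose by 2.38 (adjusted p = 1.29e-05). Egln1, Epas1, Mycn, Bhlhe40 and Bhlhe41 rose too. Arrdc4, an arrestin-like gene that responds to glucose, changed by -1.45 (adjusted p = 1.54e-05), and Bhlhe41, a circadian repressor gene, by 1.70 (adjusted p = 1.05e-05). Txnip, a relative of Arrdc4, and Myc, also singled out after their values were seen, changed by -1.23 (adjusted p = 3.58e-05) and -0.63 (adjusted p = 0.00773). Mxd1, at -1.24 (adjusted p = 6.43e-05), Mlxip, Mtor and Rptor fell too.

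**Figure D4:**
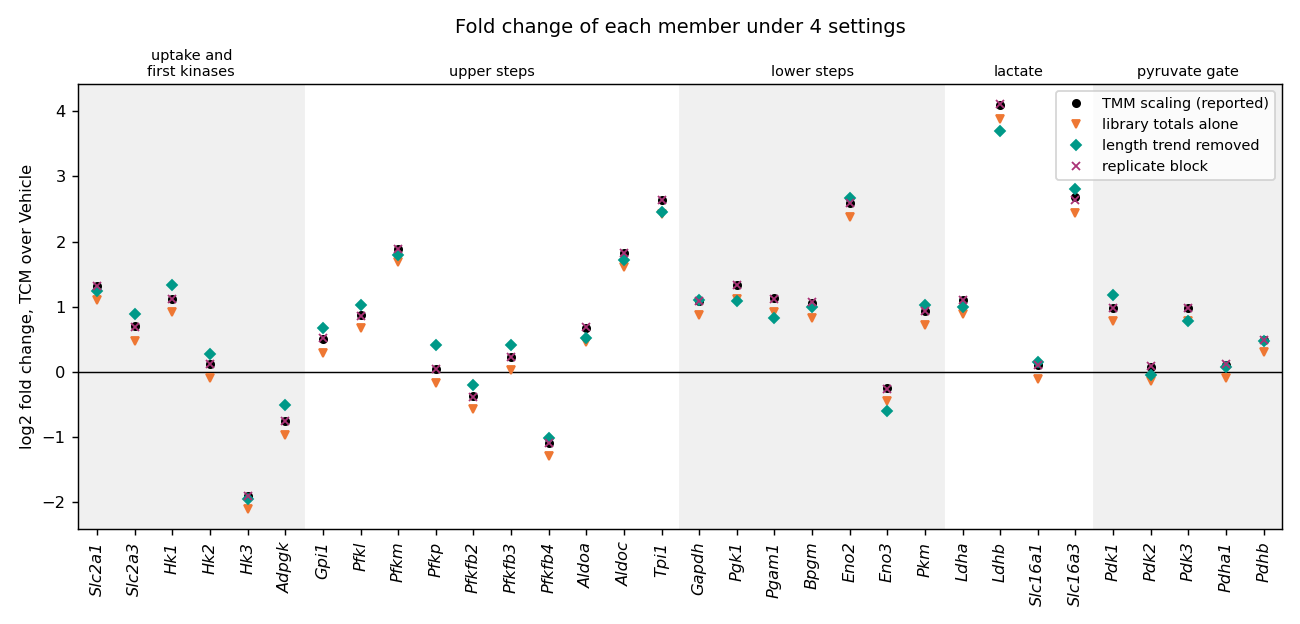
Log2 fold change of each tested member with TMM scaling (black circles), with library totals alone (orange triangles), with a trend on exon length removed (green diamonds) and with the replicate number as a block (purple crosses). The symbols stay on 1 side of 0 for the 24 members that passed, while Hk2, Pfkp, Slc16a1, Pdk2 and Pdha1 cross it with library totals alone.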

How the data were processed

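RNA of 6 splenocyte libraries was read from 2 deposited tables. The first holds the authors' raw counts, whole numbers per gene symbol. The second holds a deposited signal, counts that the authors scaled with a single factor for each library. Undoing that scale returned whole reads for 100% of values (tolerance 0.1 reads), and these recovered reads were tested too. STAR 2.7.2d, DESeq2 1.28.1 and mm10 are named in the submitters' processing notes. Neither their roles nor a counting tool or strand setting is stated there, so reads where genes overlap cannot be assigned.

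Of the rows, 92 were spike-ins at 0 and were left out. Genes kept by filterByExpr were scaled with TMM and entered the quasi-likelihood test of edgeR 4.0.16 in R 4.3.3, group as the sole term, Benjamini-Hochberg adjustment over 12423 genes. Every adjusted p for a gene is from this test unless another setting is named. The standard error is the log2 change divided by the square root of the test's F statistic. The fits were tested on simulated data. DESeq2 1.42.0 served as an alternative. RPKM use the longest protein-coding transcript in GENCODE M21 (GRCm38, the assembly of mm10).

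Deviations from the group means correlated at 0.60, 0.15 and 0.36 between libraries of equal replicate number 1, 2 and 3. The reported test did not pair the samples, and the replicate number entered only as a block in an alternative. No label says what libraries of equal number share. Vehicle 2 with TCM 3 (0.42) and Vehicle 3 with TCM 2 (0.27) correlated more than Vehicle 2 with TCM 2, so the table mainly sets replicate 1 apart. The chi-square per gene between libraries of 1 group was 5.09 and 7.29 for replicates 2 and 3 and 61.7 to 108 for pairs with replicate 1. All were above sampling noise, so no library only repeated the reads of another in its group. These values cannot tell separate cultures from separate preparations of 1 culture. Members and lists were chosen with earlier results of these data known. All members are named. Values per library are given for called changes of at least 1 on the log2 scale, for Slc2a1, Hk2, Pfkp, Pkm, Ldha, Slc16a3, Pdk1 and Pdha1, and for members that fell. Those of Slc16a1 were added later. From other lists the 3 smallest p and genes called against the majority are named, apart from 1 result that is not reported here. Alternatives were other scalings, no filter, each library left out, both replicate 1 libraries left out, the replicate block and removal of the length trend. Results of marker lists are counts and summed CPM.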

Additional observations from a re-analysis of the deposited data

How the results depend on the processing

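Of 24 called members, 21 kept direction and call under all 14 alternatives on the count table (18 higher, 3 lower), and Gpi1, Aldoa and Pdhb each lost the call under some, as given above. The count called higher ran from 18 to 24 and that called lower from 3 to 4, apart from the reads of the normalized table, which by that table's own header called 3 members higher and 21 lower, and 3726 genes higher and 3584 lower. Those are the same reads under the opposite titles, so these mirrored counts were fixed in advance. With library totals alone, a setting that moved the median of all genes by -0.21, the members' median was 0.70 in place of 0.90. Their median minus that of all genes was 0.92 in both. The same setting gave -0.093 for Hk2, -0.17 for Pfkp, -0.10 for Slc16a1, -0.14 for Pdk2 and -0.10 for Pdha1, all uncalled and of the other sign. Pdk2 was also negative without Vehicle replicate 1 (-0.10), without TCM replicate 2 (-0.12), with the length trend removed (-0.050) and with that and the block (-0.041). The cause was not tested. The ratio of Bpgm to Pgam1 ran from -0.25 to 0.11 over the fits without 1 library, and that of Pdk3 to Pdk1 from -0.070 to 0.058, so neither has a direction. The log2 change of Pdk2 ran from -0.12 to 0.27 over the same fits. With the trend on exon length removed, 23 members were higher and 4 lower.

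With the replicate block, 22 members were higher and 4 lower, and 9103 genes were called in place of 7310. Beside Pfkfb2 and Pfkfb3 it changed no member's call. For the 14 ratios of isozymes a paired exact test cannot go below 0.25. The 11 ratios with a p of 0.1 did not overlap between groups. Leaving out a library or pairing by replicate number therefore could not change their direction, and this was fixed in advance. With 1 count added to both genes, none of them changed direction. Depth limits the low members: Ldhb had 8 to 15 counts per Vehicle library, and Eno1 was under the filter.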

Other observations

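Genes of glycogen and of side entries to glycolysis moved in both directions, as did all genes tested, of which 28.8% rose and 30.0% fell. Of 21 tested, 9 rose, 5 fell and 7 did not pass, with a median log2 change of 0.39. Pygl, the glycogen phosphorylase of liver and leukocytes, went from 24.5 ± 2.44 to 4.19 ± 0.588 CPM (SD, n = 3). Its log2 change in edgeR was -2.54 (adjusted p = 2.19e-06). The other 4 that fell were Gys1, the glycogen synthase gene, Pygm, Pgm3 and Gpd1l. Pgm2, a phosphoglucomutase gene, went from 12.5 ± 0.359 to 39.3 ± 1.88 CPM, a log2 change of 1.66 (adjusted p = 4.03e-06). Sord, the sorbitol dehydrogenase gene, rose by 1.65 (adjusted p = 9.20e-05). Neutrophil markers fell in the same libraries, and their part in the fall of Pygl was not tested.

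Gapdh and Pgk1 are often used as reference genes. In a list of 16 other common reference genes 6 rose, beside 28.8% of all genes, and the median log2 change was 0.28. Hprt rose by 1.39 (adjusted p = 0.00178) and Ppia by 1.33 (adjusted p = 0.00220), Polr2a changed by -0.61 (adjusted p = 0.0116), while Actb, singled out after its value was seen, had 0.0034 (adjusted p = 0.990) and went from 5209 ± 589 to 5221 ± 220.3 CPM. Over the other lists of markers, 5 of 9 B cell genes fell and none rose, and all 7 mast cell and basophil genes fell. Of 6 tested dendritic cell genes 3 fell and Ccr7 rose, with Cd209a at 0 throughout, and of 6 tested NK cell genes 2 fell and Nkg7 rose, with Klra4 at 0. Beside these marker lists, the shares over all genes tested were 28.8% higher and 30.0% lower.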
